A study of Mus musculus with 2 samples.

Results

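Open chromatin far from any protein-coding gene was described at 8574 DNase sites of newborn mouse lung. A site was made by merging overlapping peaks of both replicates on chromosomes 1 to 19, and it was kept where both replicates had a peak. Its centre had to lie outside every protein-coding gene body of the GENCODE mm10 annotation, more than 200 kb from the nearest protein-coding transcription start site (TSS) and more than 1000 bp from any TSS. These remote sites made up 5.45% of the 157228 sites found in both replicates. They were set against 48590 intergenic sites that met the same rule but lay at most 200 kb from a protein-coding TSS, here called intergenic sites nearer genes. Beside position the rule asked for a peak in both replicates, which favours stronger sites, and it did so for both classes of sites. The word desert holds for protein-coding genes only. The median remote site lay 328.1 kb from a protein-coding TSS (quartiles 252.8 and 470.9 kb) but 41.7 kb from a TSS of any gene type, and only 498 sites of both replicates lay more than 200 kb from every annotated TSS.

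DNase-seq had been made from whole lung tissue of mice of the strain given as B6NCrl at postnatal day 0, in 1 group of 2 biological replicates with no treatment or altered allele named. DNase I cuts DNA where nucleosomes are displaced, and each replicate came with a list of peaks 150 bp wide and a list of broader hotspots, both called on that library alone. The 2 biosamples carry one donor entry in the labels, which leave unsaid whether they were different animals or pools. The sources used here do not state the sequencing depth.

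Much of the regulation of developmental genes is carried by enhancers far from the promoter, and genes for transcription factors and signalling proteins are often flanked by long stretches without other coding genes. Such enhancers are bound by combinations of sequence-specific factors and reach their promoter by looping of the chromatin. CTCF, a zinc finger protein that stops loop extrusion by cohesin, binds many accessible sites at loop anchors and domain borders, and its long recognition sequence is one of the easiest to find in open chromatin.

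The sequences of 11 remote sites are shown, chosen for their rank, their desert or their distance and not as typical members. All are given 5′ to 3′ on the + strand of mm10, read from the RefSeq copy of that assembly. The 3 sites with the highest mean score rank among those that held the CTCF consensus are shown first, with the CTCF match in capitals. In 1 of them the match was on the − strand, so that it reads in reverse complement.
chr10:66814516-66814705: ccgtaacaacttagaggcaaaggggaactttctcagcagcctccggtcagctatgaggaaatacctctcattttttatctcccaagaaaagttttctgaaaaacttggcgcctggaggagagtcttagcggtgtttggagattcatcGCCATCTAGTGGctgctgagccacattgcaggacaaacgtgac
chr3:58122816-58122985: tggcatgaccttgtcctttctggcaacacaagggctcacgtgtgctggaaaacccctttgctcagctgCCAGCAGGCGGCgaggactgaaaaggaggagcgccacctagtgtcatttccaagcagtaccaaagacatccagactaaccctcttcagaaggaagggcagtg
chr3:128337156-128337305: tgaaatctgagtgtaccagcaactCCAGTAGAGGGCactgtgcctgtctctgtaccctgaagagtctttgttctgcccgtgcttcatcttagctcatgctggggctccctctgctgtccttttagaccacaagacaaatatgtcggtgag
The 3 highest-ranked sites without a CTCF match follow. In these and in the remaining sequences capitals mark a match to any of the 15 motifs searched, anywhere in the site. The motif shares given further on count only matches wholly within the 150 bp around the site centre. The first of these 3 sites is rich in CpG and holds matches to the KLF/SP and C/EBP letters, and the others hold no match at all. The C/EBP match of the first reaches past those 150 bp.
chr6:51178596-51178765: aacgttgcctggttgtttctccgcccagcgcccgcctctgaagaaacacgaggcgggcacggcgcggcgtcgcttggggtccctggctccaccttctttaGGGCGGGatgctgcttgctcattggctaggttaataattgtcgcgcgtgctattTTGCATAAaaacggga
chr12:29291076-29291245: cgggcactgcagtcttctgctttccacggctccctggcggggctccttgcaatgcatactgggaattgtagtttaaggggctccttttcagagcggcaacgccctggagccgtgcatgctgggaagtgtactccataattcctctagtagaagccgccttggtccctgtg
chr13:5604316-5604465: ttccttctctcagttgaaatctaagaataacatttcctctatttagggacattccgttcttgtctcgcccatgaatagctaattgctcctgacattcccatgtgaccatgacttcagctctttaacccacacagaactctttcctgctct
The highest-ranked sites of 4 deserts described further on come next. The site between Zeb2 and Acvr2a holds no match and that between Myc and Gsdmc an E-box. The site between Nmbr and Cited2 holds an E-box, a C/EBP and an AP-1 match, and that between Cd83 and Jarid2 holds the NKX2 letters at 2 places.
chr2:48494116-48494285: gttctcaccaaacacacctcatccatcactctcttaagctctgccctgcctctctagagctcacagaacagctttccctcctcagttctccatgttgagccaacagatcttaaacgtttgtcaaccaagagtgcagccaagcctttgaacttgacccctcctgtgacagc
chr15:63340496-63340645: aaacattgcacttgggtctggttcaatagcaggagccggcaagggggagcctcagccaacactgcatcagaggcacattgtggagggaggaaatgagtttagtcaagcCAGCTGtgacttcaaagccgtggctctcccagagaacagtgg
chr10:17347836-17347985: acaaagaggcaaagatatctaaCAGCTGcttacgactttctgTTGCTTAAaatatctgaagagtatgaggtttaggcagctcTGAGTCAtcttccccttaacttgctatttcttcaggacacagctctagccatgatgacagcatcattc
chr13:44128996-44129145: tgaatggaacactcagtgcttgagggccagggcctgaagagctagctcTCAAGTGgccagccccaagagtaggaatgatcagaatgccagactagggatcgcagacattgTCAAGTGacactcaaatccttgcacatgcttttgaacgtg
The last is the remote site farthest from any protein-coding TSS, 2419 kb from that of Pcdh20, a protocadherin gene. Its E-box match lies outside the 150 bp around its centre.
chr14:90889796-90890025: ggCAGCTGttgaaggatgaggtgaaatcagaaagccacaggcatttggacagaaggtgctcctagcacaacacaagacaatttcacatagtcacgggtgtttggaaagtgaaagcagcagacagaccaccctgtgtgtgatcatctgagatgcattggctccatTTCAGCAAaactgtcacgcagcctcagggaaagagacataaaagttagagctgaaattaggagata

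Remote sequence was sparsely filled with open sites. It made up 500 Mb, or 20.9% of the assembled sequence of these chromosomes, and held 17.15 sites per Mb, against 57.2 per Mb in the 849 Mb of intergenic sequence nearer genes. The ratio of these densities was 0.300. Counted in each replicate alone, the density ratio was 0.323 in replicate 1 and 0.317 in replicate 2. The density was lower in remote sequence on 19 of 19 chromosomes. The ratio ranged from 0.202 on chromosome 17 to 0.546 on chromosome 13, where 726 remote sites gave 30.3 per Mb.

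Density fell steadily with distance on both sides of the 200 kb limit. In intergenic sequence it was 77.5 sites per Mb at 1 to 10 kb from a protein-coding TSS, 63.7 at 10 to 50 kb, 50.9 at 50 to 100 kb and 38.1 at 100 to 200 kb. Within remote sequence it was 24.0 per Mb at 200 to 500 kb and 8.46 per Mb beyond 500 kb. Sites just inside and just outside the 200 kb limit had like scores. The 496 remote sites at 200 to 210 kb had a median score of 57 for replicate 1 and of 38 for replicate 2, and the 546 intergenic sites at 190 to 200 kb had 56 and 38. Their median GC was 46% and 48%.

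**Figure D1:**
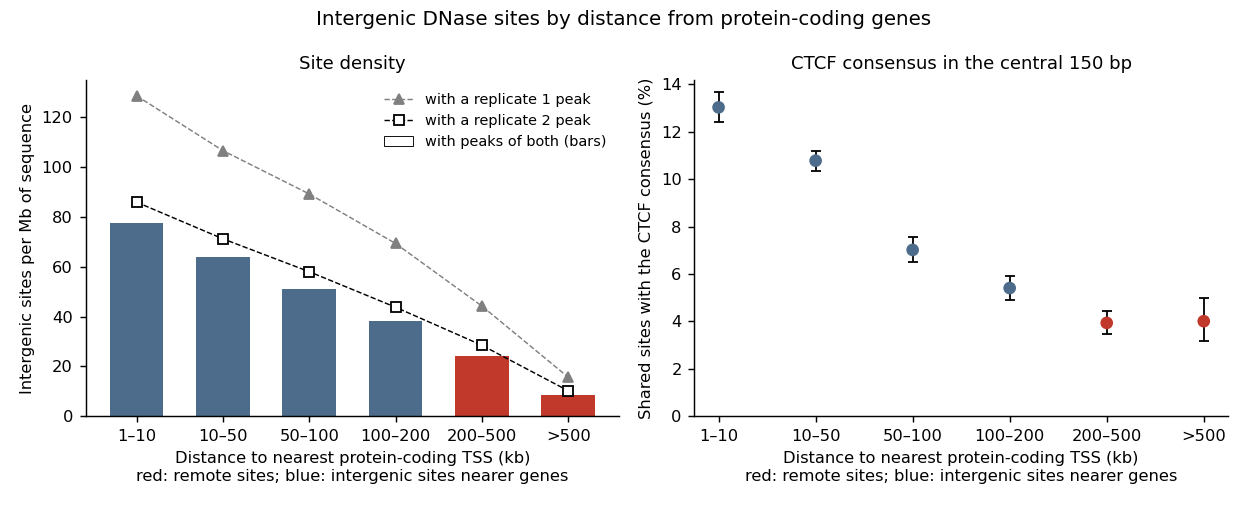
Left, intergenic sites per Mb of sequence that meets the same position rule (bars, sites with peaks of both replicates; symbols, sites with a peak of each replicate), by distance to the nearest protein-coding TSS. Right, percent of these shared sites with the CTCF consensus, with exact binomial 95% intervals. Remote sites are the 2 red classes, with 24.0 and 8.46 sites per Mb and CTCF shares of 3.94% and 4.01%.

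Remote sites were also weaker. The score is a whole number that the authors gave each peak. Its meaning is not stated in any source used here, so values were compared only within a list. The median score of remote sites was 49 in replicate 1 (quartiles 34 and 68) and 33 in replicate 2 (24 and 46). Intergenic sites nearer genes had medians of 65 and 44. As percentile ranks within their own list, remote sites had medians of 48.8 and 31.2 in replicates 1 and 2, against 67.1 and 51.7 for intergenic sites nearer genes. The median score was lower for remote sites in each replicate on 19 of 19 chromosomes. It was 51 and 34 for the 6704 remote sites at 200 to 500 kb and 43 and 29 for the 1870 beyond 500 kb.

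Only 102 remote sites, or 1.19% (exact binomial 95% interval 0.971 to 1.44%), scored in the highest 10% of both lists, where 10.8% of all shared sites did. Among intergenic sites nearer genes the share was 5.285% (5.09 to 5.49%). Those 102 sites lay on 18 chromosomes and nearest to 81 different genes, so that the strongest remote sites were spread widely. They were richer in GC than remote sites as a whole, with a median of 49.3% against 44.67%, and their median distance to a protein-coding TSS was 263.6 kb. The CTCF consensus was in 4 of them (3.92%, 1.079 to 9.74%), against 266 of 2568 equally high-ranked intergenic sites nearer genes (10.4%, 9.21 to 11.6%) and 7.2% of all shared sites.

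**Figure D2:**
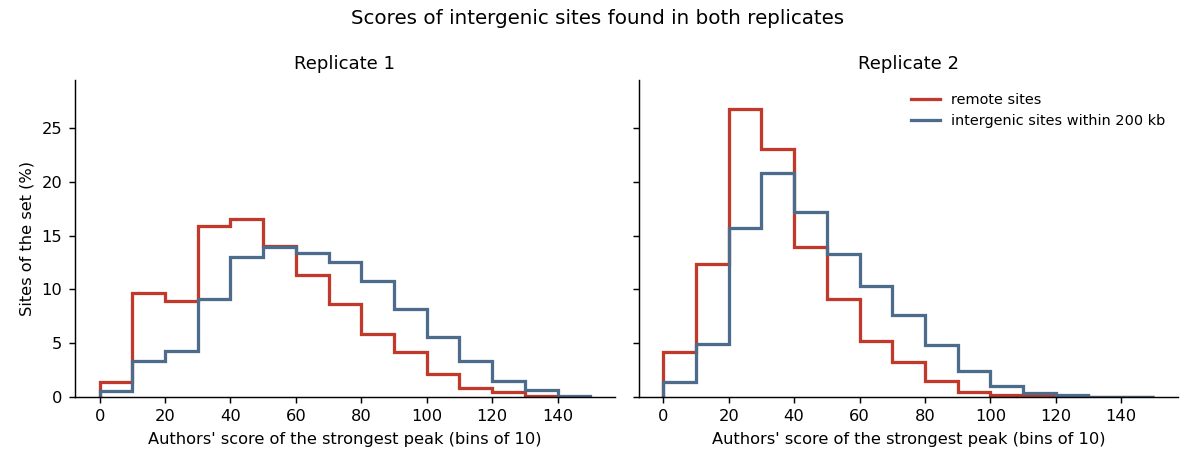
Share of sites (y axis, percent of the set) by the authors' score of the strongest peak in bins of 10 (x axis), for remote sites and intergenic sites nearer genes in each replicate. Remote sites are shifted to lower scores in both, with medians of 49 and 33 against 65 and 44.

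The replicates ranked remote sites alike. Across the 8574 sites the scores of replicates 1 and 2 had a rank correlation (Spearman) of 0.895 and, on the log2 scale, a linear one (Pearson) of 0.906. These describe sites of the same pair of libraries, which are not independent. Of 17452 candidate sites that met the position rule in either list, 49.1% (48.4 to 49.9%) had peaks in both. For intergenic sites nearer genes this share was 54.6% (54.2 to 54.9%). Replicate 1, the longer list, also had a peak at 83.9% of the remote sites of replicate 2. Replicate 2 had one at 54.2% of the remote sites of replicate 1. Candidates of 1 replicate were weak, with a median score of 30 for the 7237 found in replicate 1 alone and 22 for the 1641 found in replicate 2 alone. Every remote site lay in a hotspot of both replicates, as did all 157228 shared sites. The hotspots were narrower at remote sites, with median widths of 310 and 231 bp in replicates 1 and 2, against 357 and 267 bp at intergenic sites nearer genes. No test of a difference between these classes of sites was made, since there is 1 group of 2 libraries and neighbouring sites are not independent. The intervals cover counting error only.

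The strongest remote site was chr6:51178596-51178765, with scores of 146 in replicate 1 and 126 in replicate 2. It lies 254 kb from the TSS of Nfe2l3, which encodes a basic leucine zipper factor, and 91.2 kb from that of the microRNA gene Mir148a. Its central 150 bp held 60% GC and 14 CpG, against a mean of 1.645 CpG over all remote sites. The next, chr12:29291076-29291245, scored 143 and 121 and lies 237.2 kb from Myt1l, a gene for a neuronal zinc finger factor. The site chr13:5604316-5604465 scored 133 and 121, 257.1 kb from Klf6, a Krüppel-like factor gene, and inside the long non-coding RNA gene Gm35330. The fourth, chr13:107831276-107831465, scored 135 and 113. It lies 213.1 kb from Smim15 and inside Zswim6, which GENCODE lists as a processed transcript. The fifth, chr6:51171036-51171185, scored 138 and 110 and belongs to the same group of sites as the first.

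The standing of 3 of these 5 sites depends on the annotation. RefSeq lists Zswim6 as protein-coding and puts the fourth site inside it. It also lists a protein-coding gene, Gm38821, 101.9 kb from the first site and 109.5 kb from the fifth. Under RefSeq 8004 of the 8574 sites (93.35%) still met the whole rule.

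Remote sequence fell into 845 deserts, each an unbroken stretch outside protein-coding gene bodies and more than 200 kb from every protein-coding TSS. The median desert held 0.333 Mb and 6 remote sites, and 111 deserts, with a median of 0.0597 Mb, held 0. The 132 deserts with the most sites held 50.01% of all remote sites in 26.9% of the remote sequence. The 151 deserts of at least 1 Mb held 55.9% of the sequence but 29.95% of the sites. Their density ran from 0 to 52.4 per Mb, with a median of 6.88 and quartiles of 3.75 and 12.4. Across these 151 deserts the densities of replicate 1 and replicate 2 sites correlated with 0.926 by rank (Spearman) and 0.963 linearly (Pearson). Both replicates map the same genome, and the coefficients are a description.

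The stretch between Zeb2 and Acvr2a on chromosome 2 held the most remote sites, 107 in 3.26 Mb. Zeb2 encodes a zinc finger repressor of mesenchymal and neural crest cells, and Acvr2a an activin receptor. The sites were split almost evenly, 51 nearest to Zeb2 and 56 nearest to Acvr2a. Scores ran from 11 to 121 in replicate 1 (median 53) and from 8 to 95 in replicate 2 (median 34). The strongest, chr2:48494116-48494285, scored 121 and 95 at 319.9 kb from Acvr2a.

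The stretch between Myc, the growth-promoting transcription factor gene, and the gasdermin gene Gsdmc on chromosome 15 held 73 sites in 1.39 Mb. Of these, 45 lay inside annotated non-coding genes. Pvt1, the long non-coding RNA gene beside Myc, was the nearest annotated TSS of 20 remote sites. Median scores in this stretch were 49 and 36.

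Between Nmbr, a neuropeptide receptor gene, and Cited2, a gene for a CBP/p300-binding coactivator, 72 sites lay in 2.505 Mb, and 60 of them were nearest to Cited2. Between Cd83 and Jarid2 on chromosome 13, 62 sites lay in 0.518 Mb, or 119.7 per Mb. Jarid2 encodes a component of Polycomb complex PRC2 and Cd83 a membrane protein of dendritic cells. The median scores of these sites were 63 and 38. The stretch between Zfp608 and Gramd3 on chromosome 18 held 61 sites in 0.986 Mb, with scores of 27 to 122 in replicate 1 and 20 to 105 in replicate 2. The CTCF consensus was in 2 of the 107 sites between Zeb2 and Acvr2a, in 0 of the 62 between Cd83 and Jarid2, and in 1 site of each of the other 3 deserts, where 3.95% of all remote sites and 7.2% of all shared sites held it.

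**Figure D3:**
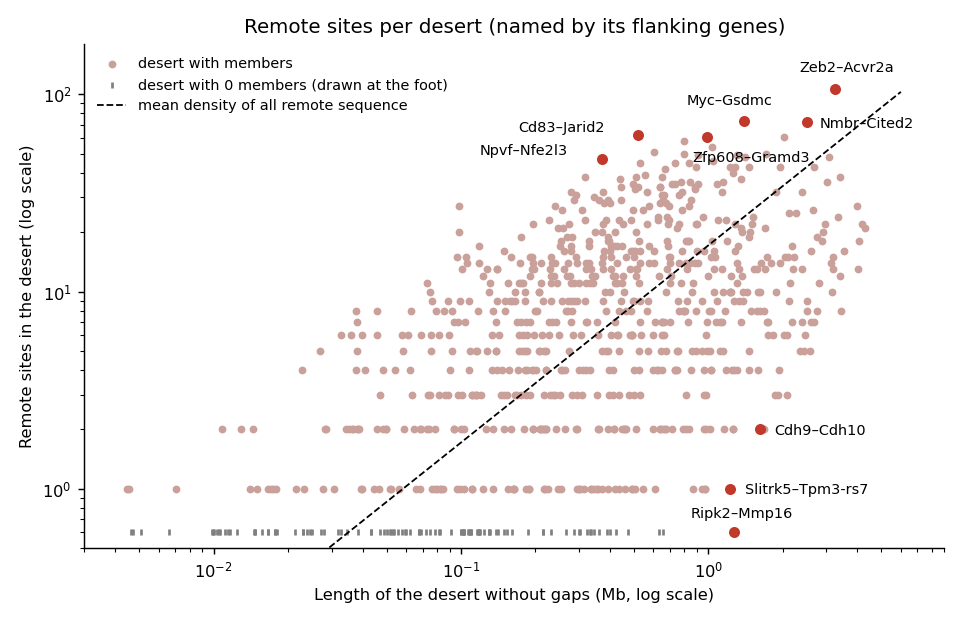
Number of remote sites (y axis, log scale) against the gap-free length in Mb (x axis, log scale) of each of the 845 deserts, with deserts of 0 sites drawn at the foot. The dashed line is the mean density of 17.15 per Mb; Zeb2–Acvr2a with 107 sites lies above it, and the long Ripk2–Mmp16 stretch holds 0.

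Among deserts of at least 0.3 Mb the density was highest between Npvf, a neuropeptide gene, and Nfe2l3, with 47 sites in 0.372 Mb or 126.3 per Mb. Under RefSeq, which lists Gm38821 there, 24 of these 47 met the rule. The stretches between Gm5148 and Ankrd50 (119.9 per Mb) and between Cd83 and Jarid2 (119.7 per Mb) followed, and 37 of 38 and 61 of 62 of their sites met the rule under RefSeq. Among deserts of at least 1 Mb, the 1.27 Mb between Ripk2 and the matrix metalloproteinase gene Mmp16 held no site of both replicates. It held 0 sites of replicate 1 and 2 of replicate 2. The 1.62 Mb between the type II cadherin genes Cdh9 and Cdh10 held 2 sites.

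The median gap between neighbouring remote sites of a desert was 16.8 kb and the median distance to the nearest other remote site 7.63 kb, in sequence with 58.3 kb per remote site. The spacing that sites placed at random would have was not computed. Another remote site lay within 5 kb of 41.8% of them (40.7 to 42.8%). For intergenic sites nearer genes these values were 3.19 kb and 60.5%, at the higher density of those sites. Joined where gaps were at most 5 kb, remote sites formed 4993 single sites and 1459 groups. Of these groups, 53 held at least 5 sites. The 298 sites in such groups had median scores of 64 and 43, against 43 and 30 for single sites.

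The group on chromosome 6 near Nfe2l3 held 8 sites in 10.6 kb, and their median score was 115 for replicate 1 and 91.5 for replicate 2. A group of 7 sites in 7.79 kb lay 202.6 kb or more from Tbc1d1, with median scores of 81 and 54. The group with the most sites, 13 in 7.13 kb on chromosome 12 nearest to Gm21863, was weak in comparison, with median scores of 29 and 21 and maxima of 44 and 33. The widest hotspots at remote sites belonged to a group of 7 sites near Zfp608 on chromosome 18, where 3 sites shared hotspots of 4151 bp in replicate 1 and 2944 bp in replicate 2. Their scores were 71, 75 and 63 in replicate 1 and 47, 60 and 49 in replicate 2, close to the upper quartiles of 68 and 46 of all remote sites.

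Of 20780 protein-coding genes, 1440 had the nearest TSS to some remote sequence, and 1170 of these to at least 1 remote site. The gene nearest to the most remote sites was Adgrl2, which encodes the adhesion receptor latrophilin 2, with 74 sites between 213.1 and 1203 kb away. Cited2 and Zfp608 had 60 each, Myc 59, Acvr2a 56 and Zeb2 51. Sox9, a factor of the distal lung epithelium and of cartilage, and Tbl1xr1, a subunit of the NCoR corepressor complex, had 42 each. Klf6 followed with 39, and Gsdmc, Jarid2 and the coactivator gene Zmiz1 had 34 each. These counts were not scaled by the length of remote sequence nearest to each gene, and by density the order differed. Adgrl2 had 42.6 sites per Mb in 1.74 Mb, Acvr2a 34.2 in 1.64 Mb and Zeb2 31.4 in 1.63 Mb. Jarid2 had 130.8 per Mb in 0.26 Mb and Zmiz1 125 in 0.272 Mb. The sites of Klf6 were among the stronger, with median scores of 71 and 41. Nearest is a statement of distance, and no contact between a site and a gene was measured.

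Taken as whole lists, remote sequence beside genes of lung development held more sites per Mb than remote sequence at large, and that beside neuronal adhesion genes held fewer. The 12 lung epithelial factor genes that border remote sequence had 176 sites in 3.28 Mb, or 53.7 per Mb, against 17.15 per Mb of all remote sequence. All 12 were nearest to at least 1 site and 10 to at least 5. Of all 1440 genes that border remote sequence, 1170 were nearest to at least 1 site and 618 to at least 5. Sox9 had 42, Irx1, of the Iroquois homeobox family, 29, and Id2, a helix-loop-helix inhibitor of distal tip cells, 27. Nfib, which encodes a factor of lung maturation, had 17, the airway factor gene Sox2 15, the Krüppel-like factor gene Klf5 13, and Irx2 9. Foxa2 and Irx5 had 6 each and Gata6 5. Klf5 had the highest density of the list, 131.8 per Mb in 0.0986 Mb, with median scores of 76 and 52.

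The 11 mesenchymal factor genes with remote sequence had 186 sites, or 33.3 per Mb. Zeb2 had 51, the nuclear receptor gene Nr2f2 28, the homeobox gene Meis1 26 and the T-box gene Tbx3 23. Nr2f1 had 17, Osr1 14, Ebf1 11, Gli3, an effector of hedgehog signalling, 8, and Meox2 5. Barx2, with 0.0245 Mb, had 0. Densities in this list ran from 0 at Barx2 to 89.1 per Mb at Tbx3. Nr2f1, with 15.1 per Mb, and Meis2, with 14.5 per Mb from 3 sites, also lay below the 17.15 per Mb of all remote sequence. Of the sites nearest to Nr2f2, 13 of 28 met the rule under RefSeq. The 4 endothelial factor genes had 64 sites, or 33.2 per Mb, of which Klf4 had 29, Ets1 24 and Mef2c 8. Their densities ran from 10.9 per Mb at Mef2c, below that of all remote sequence, to 72.2 per Mb at Klf4.

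Among 9 morphogen and growth factor genes with remote sequence, 61 sites gave 45.45 per Mb. The ligand gene Fgf9 had 17, Bmp2 15, Tgfb2 8 and Shh 7, and the signalling inhibitor gene Spry2 had 6. Wnt5a, with 0.0270 Mb of remote sequence, had 0. Tgfb2 was the densest, 120.6 per Mb in 0.0663 Mb.

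The 20 neuronal adhesion and synapse genes all bordered remote sequence, 30.7 Mb in total, and had 121 sites in it, or 3.945 per Mb. Their median scores were 39 and 28, against 58.5 and 40 for the sites of the epithelial list. All 20 were nearest to at least 1 site and 9 to at least 5, where 1170 and 618 of all 1440 bordering genes were. Cdh11, a cadherin gene expressed in mesenchyme, had 25 of the 121 and median scores of 58 and 42, and Cdh8 had 18. Slitrk6 had 9, Cdh18, Pcdh9 and Pcdh17 had 8 each, and Cdh9 and Pcdh10 had 6 each. The protocadherin gene Pcdh7 had 6 in 3.19 Mb.

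The neuronal genes border longer deserts, and density falls with distance, so the lists were also read within 1 band of distance. At 200 to 500 kb from a protein-coding TSS the epithelial list had 58.2 sites per Mb, the mesenchymal list 45.2, the endothelial list 47.2, the morphogen list 44.3 and the neuronal list 4.60, against 24.0 for all remote sequence in that band. Beyond 500 kb the epithelial list had 33.5 per Mb from 20 sites, the mesenchymal list 18.5 from 46, the endothelial list 15.3 from 13, the morphogen list 87.55 from only 3 and the neuronal list 3.685 from 81, against 8.46 for all. In replicate 1 alone, over both bands, the epithelial, mesenchymal, endothelial, morphogen and neuronal lists had 98.25, 65.9, 73.6, 83.4 and 7.56 sites per Mb, against 31.6 for all remote sequence. In replicate 2 alone they had 63.2, 39.4, 38.4, 50.7 and 5.31, against 20.4, so that the mesenchymal and endothelial lists changed places. These are densities of sites in 1 map, with no test over the lists.

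**Figure D4:**
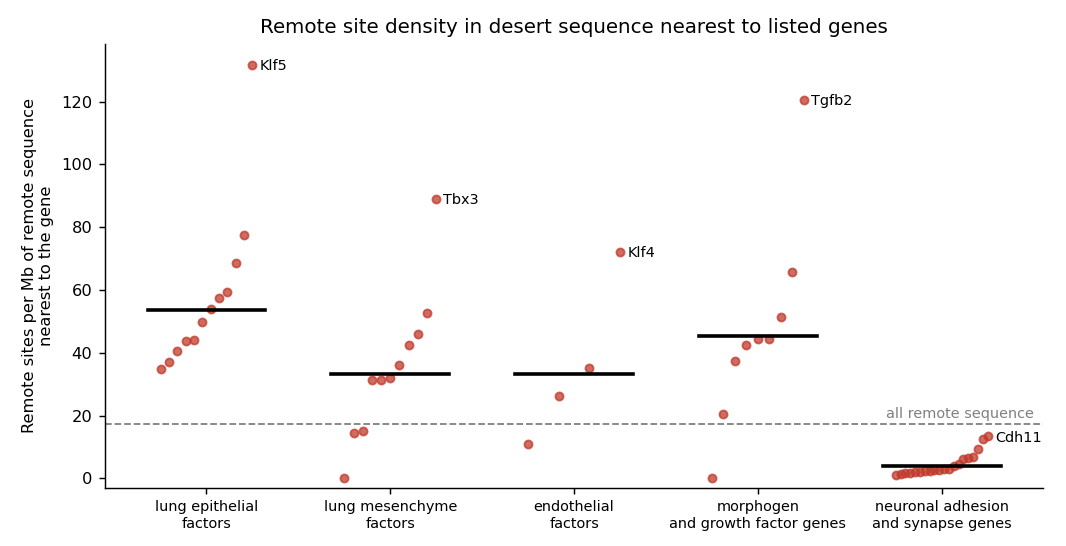
Remote sites per Mb of remote sequence nearest to each listed gene (points, with the densest gene of each list named) and for each list as a whole (black bars). The dashed line is all remote sequence at 17.15 per Mb; the neuronal list lies below it at 3.945 and the epithelial list above it at 53.7.

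Remote sites were poorer in GC and CpG. The 150 bp around the centre had a median GC of 44.67% (quartiles 40.0 and 49.3%) and a mean of 1.645 CpG, against 48.67% and 2.46 CpG at intergenic sites nearer genes. Remote sequence itself had 38.7% GC and intergenic sequence nearer genes 42.3%, and the sites were richer in GC than their surroundings in both. Repeat-masked bases made up a mean of 13.2% of the 150 bp at remote sites and 39.8% of remote sequence. For intergenic sites nearer genes and their sequence these values were much alike, 11.8% and 37.75%. The median GC of remote sites was 45.3% at 200 to 500 kb and 42.67% beyond 500 kb.

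The 150 bp were searched on both strands for the letters of 15 motifs, which are short consensus strings and no proof of binding. The largest difference in percentage points concerned the core of the CTCF consensus, which is the part in capitals in the 3 sequences shown first. It was in 339 remote sites, or 3.95% (3.55 to 4.39%), against 9.735% (9.47 to 10%) of intergenic sites nearer genes and 7.2% of all shared sites. Windows of remote sequence outside hotspots held it in 0.336%, and windows 1 kb to either side of the remote sites in 0.489%. The CTCF share was thus above that of its surroundings at remote sites, but lower than nearer genes. It was lower in remote sites on 19 of 19 chromosomes, where it ranged from 1.85 to 5.66%, against 7.695 to 11.3% at intergenic sites nearer genes.

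The difference was there within classes of GC and within classes of score rank, each taken separately. The classes are wide, and sites were not matched for GC and rank together. With GC of 40 to 50%, 3.74% of remote sites and 9.02% of intergenic sites nearer genes held the CTCF letters, with GC above 50% 5.47% and 10.7%, and with GC under 40% 2.88% and 8.405%. Above the percentile rank of 75 in replicate 1 the shares were 5.36% and 13.0%, and above that rank in replicate 2 they were 7.98% and 17.9%. The decline also set in before the 200 kb limit, from 13.0% at 1 to 10 kb over 10.8%, 7.02% and 5.41% in the following distance classes to 3.94% at 200 to 500 kb and 4.01% beyond. At the limit itself there was no step down. The share was 4.435% (2.80 to 6.64%) at 200 to 210 kb and 3.85% (2.40 to 5.82%) at 190 to 200 kb.

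**Figure D5:**
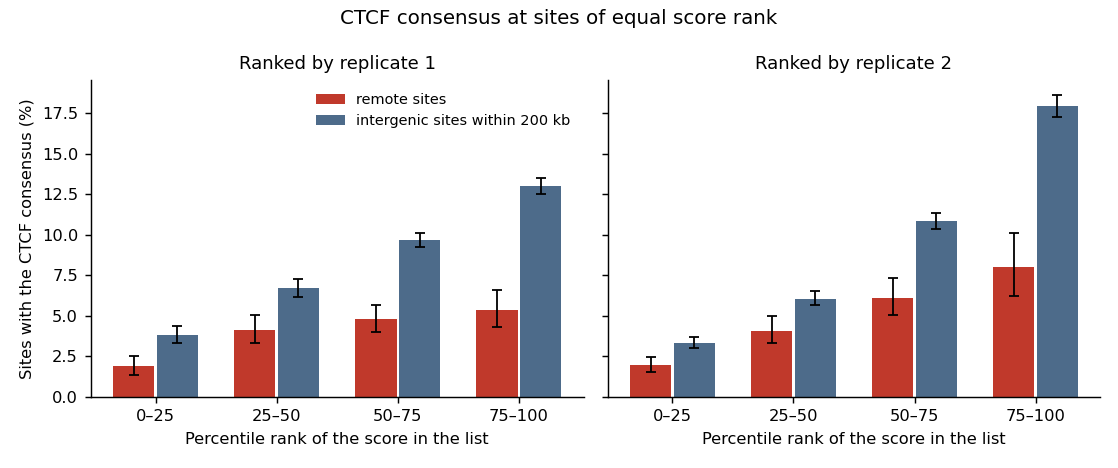
Percent of sites with the CTCF consensus (y axis, with exact binomial 95% intervals) by the percentile rank of their score in each list (x axis, classes of 25), for remote sites (left bars) and intergenic sites nearer genes (right bars). The share is lower at remote sites in all 8 pairs, from 1.87% against 3.80% in the lowest to 7.98% against 17.9% in the highest.

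Remote sites with the CTCF letters were stronger than those without, with median scores of 56 and 44 against 49 and 32. Intergenic sites nearer genes showed this too, with 74 and 60 against 64 and 43. Remote sites with other motifs also scored higher than those without. The medians were 55 and 35 against 48 and 32 for the E-box, 54 and 34 against 48 and 32 for C/EBP, and 53 and 35 against 48 and 33 for AP-1. The CTCF matches of remote sites lay on the + strand in 177 sites and on the − strand in 162, at a median of 18 bp from the site centre. The 3 highest-ranked were chr3:58122816-58122985, with scores of 109 and 93, 274.8 kb from the profilin gene Pfn2; chr10:66814516-66814705, with 103 and 100, 220.0 kb from Reep3; and chr3:128337156-128337305, with 107 and 92. Of the 339 sites, 14 had a CTCF match that shared bases with a match of another motif, most often the E-box.

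The other motifs differed by fewer percentage points. The AP-1 letters TGANTCA were in 10.5% of remote sites (9.82 to 11.1%) and 10.4% of intergenic sites nearer genes, against 4.51% of remote windows outside hotspots and 9.07% of all shared sites. The E-box CAGCTG was in 14.6% and 14.7%, against 3.95% of such windows and 13.8% of all shared sites. Among sites with GC of 40 to 50% the E-box was in 14.5% of remote sites (13.5 to 15.6%) and 12.2% of intergenic sites nearer genes (11.75 to 12.6%).

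The C/EBP letters TTGCNNAA were in 14.6% of remote sites and 12.1% of intergenic sites nearer genes, but with GC of 40 to 50% in 15.0% and 14.8%. They were in 7.99% of remote windows and 10.7% of all shared sites. The FOX letters TGTTTAC were in 4.84% and 4.19%, against 2.38% of remote windows and 3.78% of all shared sites, and with GC of 40 to 50% in 5.065% and 5.12%. TEAD, as TGGAATG, was in 5.26% and 4.67%, against 2.45% of remote windows and 4.19% of all, and with GC of 40 to 50% in 5.80% and 5.245%. NKX2, as TCAAGTG, was in 4.105% and 3.46%, against 2.25% of windows and 3.42% of all, and with GC of 40 to 50% in 4.13% of both classes. Such short letters do not tell the members of a factor family apart.

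Lower at remote sites were ETS, as AGGAAGT, with 7.84% (7.28 to 8.43%) against 8.99% (8.74 to 9.25%), and RUNX, as TGTGGTT, with 3.31% (2.94 to 3.71%) against 4.07% (3.895 to 4.25%). Windows of remote sequence held these in 3.34% and 3.19%, and all shared sites in 8.355% and 3.56%. With GC of 40 to 50% both stayed lower at remote sites, 8.11% against 9.57% for ETS and 3.35% against 4.73% for RUNX. KLF/SP, as GGGCGGG, was in 1.21% (0.992 to 1.47%) and 3.30% (3.14 to 3.46%), with 0.327% of windows and 7.735% of all shared sites, which include promoters. Over sites of all GC this gap was larger in proportion than that of CTCF. With GC of 40 to 50% the order was reversed. There KLF/SP was in 0.565% and 0.994%, and CTCF in 3.74% and 9.02%.

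The letters AGATAAG of GATA factors were in 2.83% of remote sites and 2.36% of intergenic sites nearer genes. ACAATGG, of SOX factors, was in 2.71% and 2.19%, and the MEF2 consensus in 2.58% and 2.49%. Remote windows outside hotspots held these in 2.39%, 3.025% and 2.635%, windows 1 kb from remote sites in 2.23%, 2.63% and 2.43%, and all shared sites in 2.14%, 1.96% and 2.29%. The palindromic consensus of the glucocorticoid receptor was in 62 remote sites (0.723%) and 0.708% of intergenic sites nearer genes, against 0.214% of windows and 0.631% of all. The palindromic NFI consensus was in 11 (0.128%) and 0.136%, against 0.005575% of windows and 0.102% of all. For each motif, the sites whose match shared bases with that of another motif were at most 6.69% of those with a match.

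Of the remote sites, 1300 (15.2%, 14.4 to 15.9%) lay inside a non-coding gene, against 13.0% (12.7 to 13.3%) of intergenic sites nearer genes. The nearest TSS was that of a non-coding gene or pseudogene for most remote sites, which the rule itself favours. Mir148a was the nearest TSS of 18 remote sites, 48.9 to 150.8 kb away.

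As a check of the tissue, 13 of 14 lung marker genes had a site of both replicates within 500 bp of a TSS, among them Sftpc of alveolar type 2 cells, Ager of type 1 cells, Foxj1 of ciliated cells and the endothelial gene Cdh5. The airway secretory gene Scgb1a1 had none. Of all 20780 protein-coding genes 70.01% had such a site. The count was 2 of 5 for heart, 1 of 5 for liver, 3 of 7 for blood and 1 of 4 for skeletal muscle markers. Whole lung holds blood and vessel walls as well as epithelium, and the cell type that carries a remote site was not measured.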

How the data were processed

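DNase-seq of whole newborn lung was used as 1 group of 2 biological replicates, numbered as in the labels. The authors deposited, per library, peaks with a score, a whole number whose meaning no source used here states, and hotspots with a −log10 q-value. Both were called on each library's own mm10 alignments, per the deposited notes. Aligner, peak caller and depth are not given in the sources used here. Therefore counts of sites were not scaled by depth. The lists held 269850 and 183836 peaks on chromosomes 1 to 19 in replicates 1 and 2. Exact duplicates (25 and 22) were removed.

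Peaks that overlapped by at least 1 bp were merged, and a site took its highest score per replicate and its percentile rank in that list. Genes and TSSs came from GENCODE M21, with RefSeq as an alternative, and sequence and repeat masking from RefSeq's copy of the assembly that mm10 denotes. No peak ended past a chromosome end (0 on 19 chromosomes). Densities used bases without gaps that met the same position rule. Motif letters, GC and CpG were read in 150 bp around the site centre.

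No tests were made, since there is 1 group and sites are not replicates. Intervals are exact binomial 95% intervals and cover counting error only. The functions were tested on simulated data. Members, gene lists and motifs were chosen with earlier results of these data known. Named were the 5 highest-ranked and 5 farthest sites, the 3 in the widest hotspots, the 5 deserts with the most sites, the 10 genes (with ties) nearest to the most sites, and listed genes nearest to 5 or more sites. Dense and sparse deserts, groups of sites, listed genes with fewer sites and the distance bands were added after their values were seen. Some genes that these rules or lists name are not reported here. Of 18 morphogen genes 17 matched the annotation. The alternatives changed distance, overlap, score, annotation, feature, window and replicate. Python 3.11.15, numpy 2.4.6, pandas 2.3.3 and scipy 1.17.1 were used.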

Additional observations from a re-analysis of the deposited data

How the results depend on the processing

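In 11 of 11 settings the density of sites and the CTCF share were lower in remote than in nearer intergenic sequence, and the values themselves moved with the definition. The 11 include the main setting but not the 300 bp window. All draw on the same 2 libraries and are not independent of each other. A limit of 100 kb gave 16285 sites, a density ratio of 0.367 (remote over nearer), a CTCF share of 4.64%, a median GC of 46%, median scores of 53 and 35 in replicates 1 and 2 and 49.9% of candidates in both replicates. A limit of 500 kb gave 1870 sites, 0.173, 42.67% GC and scores of 43 and 29. Peaks above the median score of their list gave 2383 sites, 0.165, 6.84% with CTCF, 46% GC, scores of 79 and 56 and 52.6% in both replicates. A distance of 200 kb from every TSS of any gene gave 498 sites, 0.268, 4.42% with CTCF, 44% GC and scores of 45 and 30. An overlap of at least 75 bp gave a ratio of 0.290, a replicate 2 score of 34 and 45.1% in both replicates. RefSeq gave a ratio of 0.3165. Hotspots in place of peaks gave 0.3125 and 3.51% with CTCF. A 300 bp window gave 4.43% with CTCF and 43.67% GC. Without sites that were more than 50% repeat-masked, an alternative chosen after seeing the data, the ratio was 0.2945 and the replicate 2 score 34. The length of sequence was left unchanged there. Each replicate alone gave 10240 to 15836 sites, ratios of 0.317 to 0.323, CTCF shares of 2.73 to 3.56%, and a median score of 37 for replicate 1 alone and 30 for replicate 2 alone. No paired analysis was possible because there is 1 group and no test. With depth unknown, weak sites found in 1 replicate cannot be told apart from sites missed in the other. The score, of unstated meaning, serves only to rank sites within a list.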

Other observations

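The emptiest long deserts held weak sites. Among the 151 deserts of at least 1 Mb, the 38 with the lowest density held 196 remote sites in 76.9 Mb, or 2.55 per Mb, and their median score was 21 for replicate 1 and 17 for replicate 2. The 38 with the highest density held 1376 sites in 57.8 Mb, or 23.8 per Mb, with median scores of 49 and 33. Repeat-masked bases made up a mean of 29.4% of the central 150 bp in the sparsest deserts and 13.0% in the densest, and the CTCF consensus was in 3.57% (1.45 to 7.22%) and 3.85% (2.90 to 5.01%). Across the 131 such deserts with at least 5 sites, density and median score had a Spearman rho of 0.607 in replicate 1 and 0.582 in replicate 2.

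Of all remote sites, 564 (6.58%) were more than 50% repeat-masked in their central 150 bp, against 4.95% of intergenic sites nearer genes. Their median scores were 26 and 21, against 50 and 34 for the other 8010 remote sites. The CTCF letters were in 1.06% of them, against 4.16% of the others. Whether reads from repeats bear on the sparse deserts was not tested.

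The 5 sites farthest from a protein-coding TSS lay more than 2 Mb away and were unlike each other. The pair between Pcdh20 and Pcdh9 on chromosome 14 had scores of 41 and 72 in replicate 1 and 26 and 56 in replicate 2. The pair between Celf4 and Pik3c3 on chromosome 18 had 17 and 48 in replicate 1 and 16 and 29 in replicate 2. The site between Cntnap5b and Cdh20 on chromosome 1 had 14 and 11 and lay in a pseudogene. Of the central 150 bp of this site, 50.67% was repeat-masked.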
